A study of Drosophila melanogaster with 14 samples.

Results

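Axon guidance receptors and ligands steer growing nerve fibres and, in the adult brain, keep acting at synapses. The data cover 10 such genes of Drosophila melanogaster: the semaphorins Sema1a, Sema1b and Sema2a, the plexins PlexA and PlexB, the receptors robo1 and fra, the actin regulator ena, and the adhesion molecules Dscam1 and Fas2. Every probe set that the array's annotation names for one of these genes, by its current symbol or an older one, was taken. This gave 10 probe sets for 6 of the 10 genes, out of 18769 probe sets on the array. No probe set carried the name of Sema1b, Sema2a, PlexA or Fas2 in the annotation used, so those 4 genes were not analysed here.

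RNA came from the heads of control (w1118) flies and of fmn flies, a short-sleeping strain with a mutation in the dopamine transporter gene (DAT) crossed back to the control background over 5 generations. Both strains lived under 12 h of light followed by 12 h of darkness, and after 4 such cycles a pool of male and female heads was taken every 4 h from zeitgeber time (ZT) 0, when the light comes on, to ZT 24. Each genotype thus had 7 arrays, 1 for each time point. The methods for the strains state an age of 2 to 4 days after eclosion for males, and none is stated for these pools of both sexes. Because each time point had a single array per genotype, the spread over the 7 arrays holds daily change as well as error, and the p values measure only the spread between these arrays.

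The values are MAS5 signals, which summarise the brightness of the short probes of a probe set on a linear scale. Signals of different probe sets cannot be ranked against each other, since each has its own probes. A probe set was tested unless its signal lay under 100 on at least 7 of the 14 arrays, and 8641 were. This rule drops a probe set that lies under 100 on all arrays of 1 genotype, as it did that of DAT. The counts of changed probe sets leave such cases out. It counted as changed at an adjusted p under 0.05 and a difference between genotypes of at least 0.32 on the log2 scale, the fold the study asked for. In pooled heads, fewer cells of a type and less RNA per cell cannot be told apart.

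The signal of DAT, the gene mutated in fmn, lay between 471 and 619 on the control arrays and between 1.43 and 14.5 on the fmn arrays, as the labels require. The 75th percentile of the signals was 566 to 575 on the control arrays and 563 to 584 on the fmn arrays. All 6 neuronal, all 6 glial and all 4 photoreceptor marker genes with a probe set reached 100 on every array. The summed signal of the photoreceptor markers was 70944 to 80206 on the control arrays and 56078 to 70601 on the fmn arrays, and that of the glial markers was 18364 to 20529 and 15593 to 18268, so that neither overlapped between genotypes. The fat body markers summed to 83604 to 104584 in control and 68704 to 94197 in fmn, and the neuronal markers to 6783 to 8040 and 6586 to 9062. Such sums give most weight to the genes with the highest signals. Of the single marker genes tested, 1 of 6 glial, 0 of 4 photoreceptor, 1 of 5 fat body and 2 of 6 neuronal ones were changed. Their median log2 differences were -0.01, -0.25, -0.28 and -0.08. The part of these sums in the values below was not tested. Markers of other organs stood out on 3 arrays, namely control ZT 0 (testis and accessory gland 1968, gut 4040), fmn ZT 4 (1722 and 2763) and fmn ZT 8 (ovary 5190, gut 8129), against at most 174, 265 and 184 for testis, gut and ovary on the others. On the fmn array of ZT 12, 188 of the 629 changed probe sets (29.9%) had moved less than 0.25 of the distance that separated the control mean from that of the remaining 6 fmn arrays. This share was not taken for any other array, so it has no baseline here. Where leaving out the 3 arrays or the fmn array of ZT 12 turned the genotype call of a member or wider-list probe set named below, both values are given. For the single marker genes, elav and brp among them, those values were not taken. The fmn array of ZT 12 stood out by its values at changed probe sets themselves. A smaller p without it is therefore no separate support for their calls.

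Guidance cues work in pairs of ligand and receptor. Secreted Slit repels axons through Robo receptors, and Netrin attracts them through Frazzled (fra). Semaphorins, some anchored in the membrane and some secreted, act through plexins. Inside the growth cone, regulators such as Enabled (ena) reshape actin filaments, and adhesion molecules of the immunoglobulin family hold fibres together or keep branches of one neuron apart.

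Of the 7 member probe sets that were tested, those of Sema1a and ena were higher in fmn, by 1.48-fold each, and none was lower. Over all tested probe sets 3.7% were higher and 3.58% were lower (320 and 309, or 207 and 298 with the arrays centred on their median), and the median log2 difference was -0.02, against 0.07 over the 7 probe sets. The probe set of robo1 was higher by a small amount, and those of fra, Dscam1 and PlexB showed no difference past the test. No member had signals that separated the genotypes entirely, which 4.95% of all tested probe sets had. With the time point as a block in the fit, 8.04% of the tested probe sets were changed, and the same 2 of the 7 were among them.

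**Figure D1:**
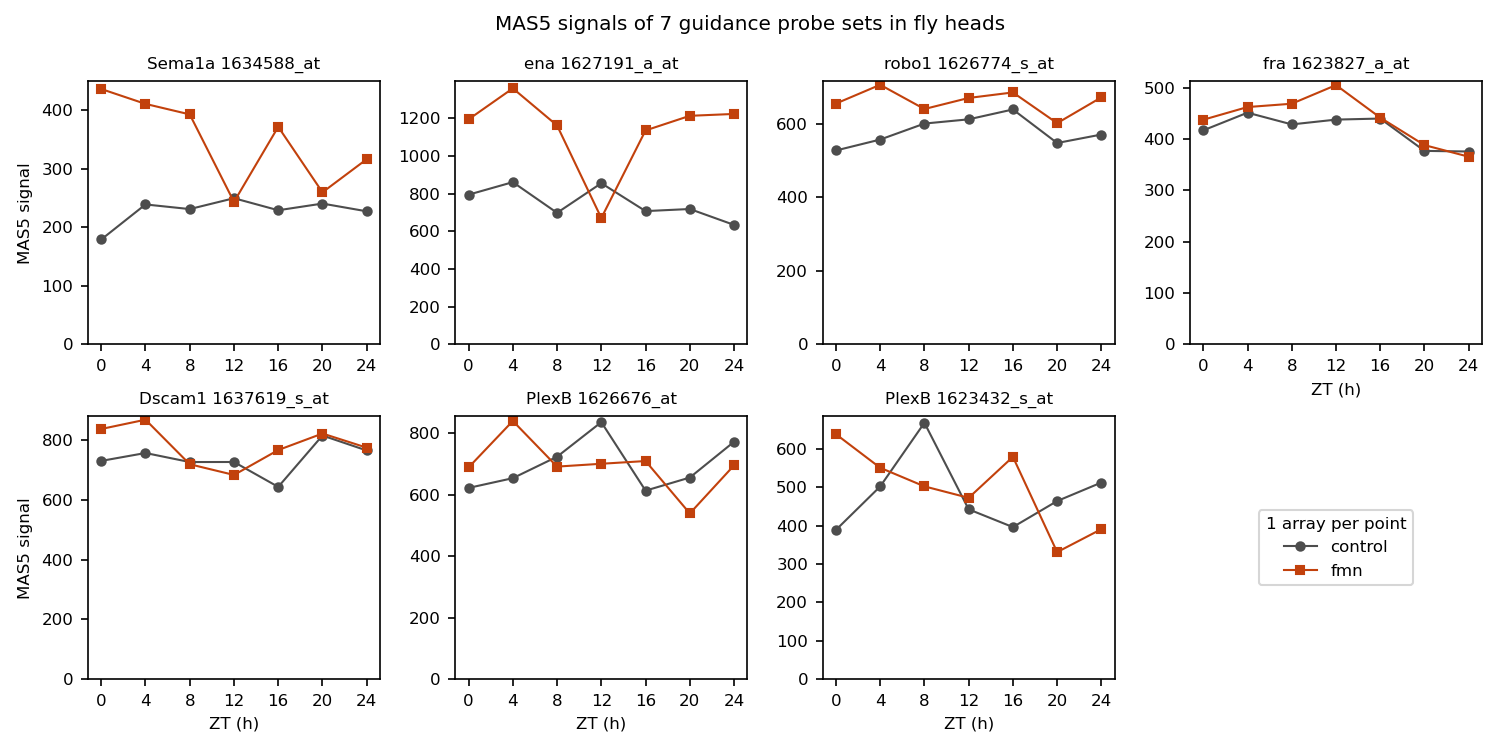
MAS5 signal (vertical axis, linear, from 0) against zeitgeber time in hours for the 7 tested probe sets of Sema1a, ena, robo1, fra, Dscam1 and PlexB, with circles for control and squares for fmn, 1 array per point. The fmn points of Sema1a and ena lie above the control points except at ZT 12, while those of robo1 lie above at all 7 times.

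Sema1a encodes a membrane-anchored semaphorin that serves as a ligand of PlexA and can itself act as a receptor. Its probe set 1634588_at had control signals of 179, 239, 231, 250, 229, 241 and 227 from ZT 0 to ZT 24. The fmn signals at the same times were 436, 411, 393, 243, 372, 260 and 316. Thus 6 of the 7 fmn arrays lay above every control array, and the seventh, of ZT 12, lay within the control range. The means were 228 ± 22.9 in control and 347 ± 75.4 in fmn (SD, n = 7), a log2 difference of 0.57 (SE 0.12, 95% confidence interval 0.31 to 0.83, limma adjusted p = 0.00505). The difference was widest at ZT 0, at 1.27 on the log2 scale, where the control array had its lowest signal, and it was 0.11 at ZT 20.

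The call of Sema1a was lost without the 3 arrays bearing other organs' markers. Without those 3 arrays (control ZT 0, fmn ZT 4 and fmn ZT 8), the log2 difference of Sema1a was 0.42 with a limma adjusted p of 0.0522. Over all tested probe sets that setting, with fewer arrays, called 506, of which 443 were among the 629. Without the fmn array of ZT 12 the log2 difference of Sema1a was 0.65 with an adjusted p of 0.000699. ZT 0 and ZT 24 are both lights-on, 1 day apart, and Sema1a rose by 0.36 on the log2 scale from ZT 0 to ZT 24 in control while it fell by 0.43 in fmn, against an SD over all tested probe sets of 0.258 and 0.202 for that difference.

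PlexB encodes the plexin that serves as receptor of the secreted semaphorins Sema2a and Sema2b, and it had 4 probe sets. On 1626676_at the signals ranged from 613 to 836 (median 656) in control and from 539 to 840 (median 695) in fmn, with a log2 difference of -0.02 (SE 0.09, limma adjusted p = 0.920). On 1623432_s_at they ranged from 389 to 668 (median 464) and from 331 to 639 (median 503), with a log2 difference of 0.02 (SE 0.14, limma adjusted p = 0.957). The genotypes overlapped on both probe sets, and the intervals, -0.21 to 0.17 and -0.29 to 0.32, show that the second was measured less closely. The other probe sets of PlexB, 1623145_s_at (38.5 to 73.1) and 1640702_at (27.7 to 56.5), lay under 100 on all 14 arrays.

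Where a gene has several tested probe sets, the ratio of a dimmer one to the brightest on the same array does not depend on the scaling of the arrays. Of 560 such ratios on the array, 15.5% differed between genotypes. PlexB was the only member with one, and its log2 ratio differed by 0.03 (SE 0.13, limma adjusted p = 0.899). From ZT 0 to ZT 24 the log2 signal of 1623432_s_at rose by 0.41 in control and fell by 0.68 in fmn, more than the 0.33 and 0.05 of 1626676_at.

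robo1 encodes the Slit receptor that keeps axons from recrossing the midline. Its probe set 1626774_s_at ranged from 527 to 639 (median 571) in control and from 602 to 706 (median 670) in fmn. It was higher in fmn at all 7 times, and 6 of the 7 fmn signals lay above every control signal, ZT 12 included and ZT 20 not. On the centred log2 scale of the tests, fmn ZT 8 (0.132) also lay under control ZT 16 (0.153). The log2 difference was 0.18 (SE 0.05, 95% confidence interval 0.07 to 0.29, limma adjusted p = 0.0211), or 1.13-fold, which is under the 0.32 asked of a change. Without the arrays of ZT 0, of ZT 4 or of ZT 24 the adjusted p of robo1 was 0.0635, 0.0848 and 0.0629, and without the 3 arrays bearing other organs' markers it was 0.0953. In the fit over all probe sets it was 0.0873, and with the arrays centred on their median 0.424.

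fra encodes the Netrin receptor of the DCC family. Its probe set 1623827_a_at ranged from 376 to 452 (median 429) in control and from 366 to 505 (median 442) in fmn, so the ranges overlapped. The log2 difference was 0.05 (SE 0.07, 95% confidence interval -0.09 to 0.20, limma adjusted p = 0.653). The 0.32 asked of a change lies outside that interval.

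Dscam1, a receptor of the immunoglobulin family, is spliced into a very large number of forms through which branches of one neuron recognise and avoid each other. Its probe set 1637619_s_at ranged from 644 to 816 (median 731) in control and from 684 to 869 (median 775) in fmn, with a log2 difference of 0.07 (SE 0.06, 95% confidence interval -0.06 to 0.20, limma adjusted p = 0.485). The other probe set of Dscam1, 1633601_at, stayed between 0.903 and 29.2 on all 14 arrays and was not tested. Which of the spliced forms each probe set reads is not stated in the annotation used.

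ena encodes the fly member of the Ena/VASP family, which lengthens actin filaments and acts below Robo receptors and the Abl kinase. Its probe set 1627191_a_at had control signals of 794, 861, 698, 855, 707, 718 and 634 from ZT 0 to ZT 24. In fmn the signals were 1194, 1359, 1162, 670, 1135, 1213 and 1223. All fmn arrays but that of ZT 12 lay above all control arrays, and the ZT 12 array lay under all but the lowest control array. The means were 752 ± 86.0 and 1137 ± 218 (SD, n = 7), a log2 difference of 0.56 (SE 0.13, 95% confidence interval 0.29 to 0.83, limma adjusted p = 0.00650). At the 6 other times the difference ran from 0.58 at ZT 0 to 0.95 at ZT 24, and at ZT 12 it was -0.35. It was 0.68 without the fmn array of ZT 12 (adjusted p = 1.3e-05) and 0.51 without the 3 arrays bearing other organs' markers (adjusted p = 0.0491).

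**Figure D2:**
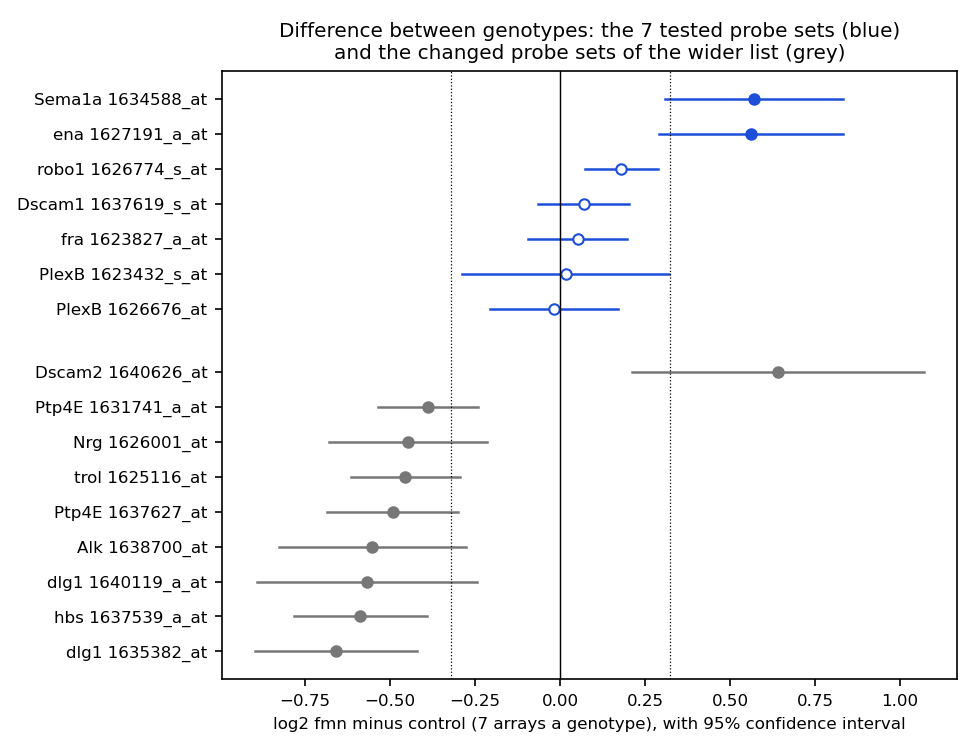
Log2 difference of fmn minus control (horizontal axis) with its 95% confidence interval, 7 arrays a genotype, for the 7 tested probe sets of the members (blue) and the 9 changed probe sets of the wider guidance list (grey). Filled points were changed and open points were not, and the dotted lines mark 0.32 in either direction. The intervals of Sema1a and ena lie above 0, and 8 of the 9 grey points lie below it.

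Several of these genes lie on the same chromosome arm as DAT, and by the study's account the backcross did not replace the whole region around DAT in fmn. In the order of protein-coding genes of the Release 6 assembly, ena was the 403rd from DAT on arm 2R, fra the 535th, robo1 the 880th and Dscam1 the 1319th. These ranks, and those that follow, do not say on which side of DAT a gene lies. Sema2a was the 3rd and Sema1b the 187th, though neither had a named probe set. Sema1a lies on arm 2L and PlexB on chromosome 4. For comparison, scb, the 177th gene from DAT, had control signals of 449 to 515 and fmn signals of 38.8 to 82.6, and the filter left it out of the tests. The study found no difference in scb mRNA by RT-PCR. By its account the low signal came from single-base substitutions in fmn under this probe set. Whether base differences under the probes lower or raise the signal of any member, or of any gene of the wider list below, was not tested. Distances from DAT were taken for the members and scb only, not for the wider list.

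No member followed a daily rhythm past the test. A wave of 24 h fitted over both genotypes was called in 14.4% of all tested probe sets and in 0 of the 7, in control alone in 5.14% and 0, and in fmn alone in 4.28% and 0. The closest was fra, whose fitted wave had an amplitude of 0.13 (SE 0.04) on the log2 scale and peaked at ZT 9.42 (limma adjusted p = 0.0519). Its control signals fell from 440 at ZT 16 to 377 and 376 at ZT 20 and ZT 24, and its fmn signals from 505 at ZT 12 to 366 at ZT 24. Dscam1 came next, with an amplitude of 0.10 (SE 0.03) and a peak at ZT 0.361 (adjusted p = 0.119). The fitted peak of fra thus lay in the light phase and that of Dscam1 near lights-on. Sema1a (amplitude 0.11, adjusted p = 0.691) and ena (0.15, adjusted p = 0.459) followed no wave past the test.

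A test of whether the wave differed between genotypes called 0% of the 8641 probe sets by limma, none of the members included. By the unadjusted p 357 were under 0.05, which is fewer than 1 in 20. Among the members the smallest unadjusted p for a difference in rhythm was that of ena, 0.0933 (adjusted p = 0.998).

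**Figure D3:**
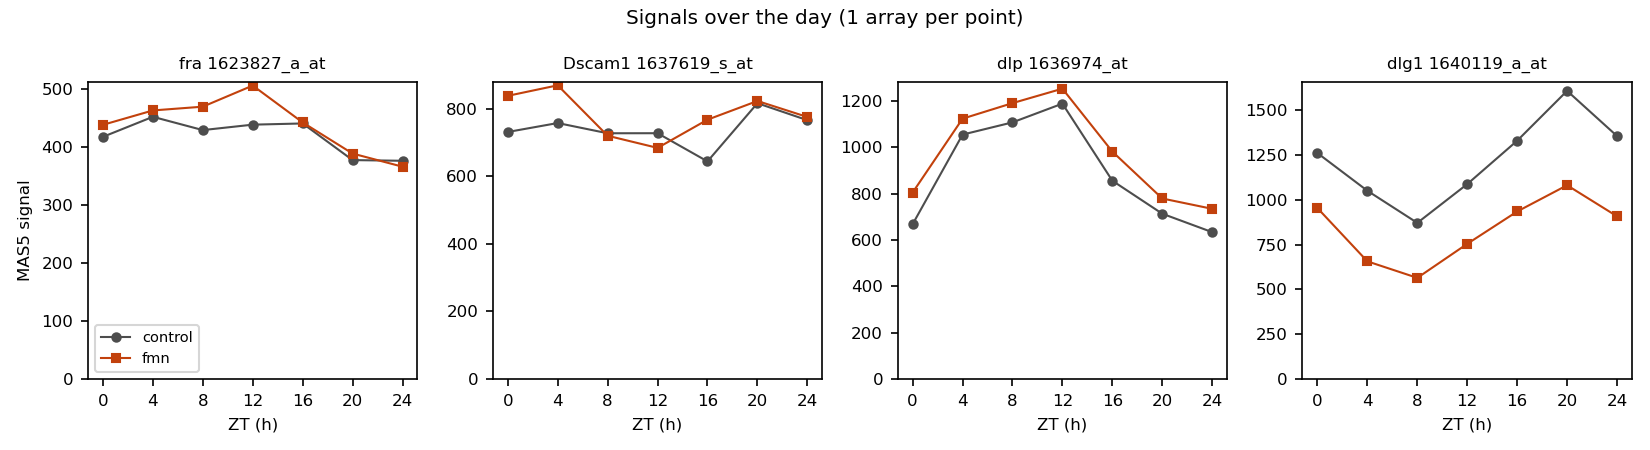
MAS5 signal (linear, from 0) against zeitgeber time in hours for fra and Dscam1 and, from the wider list, dlp 1636974_at and dlg1 1640119_a_at, with circles for control and squares for fmn, 1 array per point. fra reached 505 at ZT 12 in fmn and 452 at ZT 4 in control, while dlp and dlg1 rose and fell in both genotypes, with fitted peaks at ZT 9.55 and ZT 19.7.

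The arrays on which Sema1a and ena departed from their genotype's mean were shared with some other genes. Over the 14 arrays, after each genotype's mean was taken out, the deviations of Sema1a were most alike to those of ftz-f1 (r = 0.94), a nuclear receptor, shi (r = 0.93), the dynamin of synaptic vesicle recycling, and Stacl (r = 0.85), among 7661 probe sets of 1 gene each. Those of ena were most alike to CG34106 (r = 0.92), sfl (r = 0.92), an enzyme of heparan sulfate synthesis, and fau (r = 0.91). Without the fmn array of ZT 12 the correlations of Sema1a were 0.90, 0.90 and 0.77, and those of ena were 0.68, 0.61 and 0.60, so the likeness of ena rested more on that array. Between Sema1a and ena themselves r was 0.50, and among the other pairs of the 7 probe sets it ran from -0.55 (fra and Dscam1) to 0.63 (Sema1a and PlexB 1623432_s_at). These correlations share the arrays and their scaling and are given as a description.

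A wider list of guidance genes, 103 in all, held 79 with a named probe set, and 81 of their 121 probe sets, in 67 genes, were tested. In fmn 1 of the 81 was higher (1.23%, against 3.7% of all tested) and 8 were lower (9.88%, against 3.58%), with a median log2 difference of -0.00051 against -0.02 over all tested. Counting the brightest probe set of each gene, 1 of 67 was higher (1.49%) and 4 were lower (5.97%). Among the ligands 0 of 9 were higher and 1 was lower, among the receptors and adhesion molecules 1 of 43 and 5, and among the intracellular effectors 0 of 29 and 2. Without the fmn array of ZT 12 the list had 4 higher and 9 lower, and without the 3 arrays bearing other organs' markers 0 and 6. Over all 8641 tested probe sets 388 were higher and 363 lower without the fmn array of ZT 12, and 258 and 248 without the 3 arrays.

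The partners of the members picked for this paragraph showed no change past the test where they were tested. The Abl kinase, which acts above ena, reached 100 on 7 of the 14 arrays and was not tested. Both probe sets of Slit (sli), the ligand of robo1, stayed under 10 on all arrays. NetB, a Netrin and ligand of fra, had a log2 difference of -0.04 (SE 0.07, limma adjusted p = 0.761). unc-5, the repulsive Netrin receptor, had -0.08 (SE 0.07, adjusted p = 0.457). Sema2b, a ligand of PlexB, lay under 100 on 11 and 12 of the 14 arrays on its probe sets and was not tested. Mical, the actin oxidising enzyme that works below PlexA, had a difference of -0.04 (SE 0.04, adjusted p = 0.621). comm, which sorts Robo receptors away from the cell surface, had 0.02 (SE 0.09, adjusted p = 0.922). Its relatives comm2 and comm3, singled out after their values were seen, were higher at all 7 times, by 0.30 (SE 0.07, adjusted p = 0.00975) and 0.31 (SE 0.09, adjusted p = 0.0204) on the log2 scale, which is 1.23-fold and 1.24-fold and so under the size asked of a change.

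Dscam2, a relative of Dscam1 through which neurons of like type keep their branches apart, had the only probe set of the wider list that was higher. Signals of 1640626_at ranged from 135 to 176 (median 149) in control and from 100 to 331 (median 276) in fmn. All fmn arrays but that of ZT 12, the lowest of the 14, lay above every control array. The log2 difference was 0.64 (SE 0.20, limma adjusted p = 0.0380), and it was 0.85 without the fmn array of ZT 12 (adjusted p = 2.14e-06). It lost its call in 9 of 19 alternative settings, among them the fit over all probe sets (adjusted p = 0.133) and that without the 3 arrays bearing other organs' markers (0.47, adjusted p = 0.222). The dimmer 1629284_a_at of Dscam2 had 0.28 (SE 0.14, adjusted p = 0.199), or 0.41 without the fmn array of ZT 12 (adjusted p = 0.00668), and the log2 ratio of the pair was lower in fmn by 0.36 (SE 0.12, adjusted p = 0.0475, or 0.174 with no filter and 0.164 without those 3 arrays). A pair of Dscam2 probe sets that the filter left out went the other way in the fit over all probe sets, 1631056_at with a log2 difference of -0.79 (adjusted p = 0.0330) and 1624391_at with -0.58 (adjusted p = 0.0234). The probe sets of Dscam2 thus differed in direction.

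**Figure D4:**
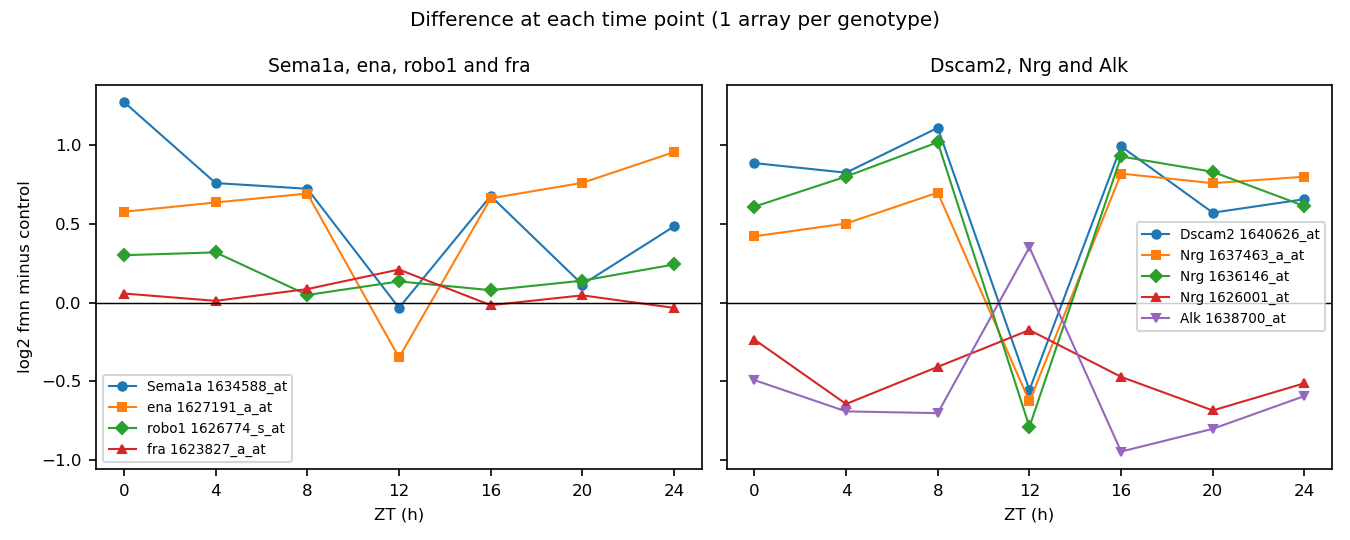
Log2 difference of fmn minus control (vertical axis) at each zeitgeber time in hours, from 1 array per genotype, for Sema1a, ena, robo1 and fra (left) and for Dscam2, Alk and the 3 probe sets of Nrg (right). At ZT 12 the lines of ena, Dscam2 and 2 Nrg probe sets drop below 0 and that of Alk rises above it, while robo1 stays above 0.

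Neuroglian (Nrg), an adhesion molecule of the L1 family, is made in a neuronal form and a form of other tissues that differ at the inner end of the protein. Its probe sets moved in opposite directions. Signals of 1626001_at ranged from 459 to 615 (median 488) in control and from 302 to 544 (median 358) in fmn, lower at all 7 times, with a log2 difference of -0.45 (SE 0.11, limma adjusted p = 0.0105, or 0.0507 in the fit over all probe sets). The brighter 1637463_a_at ranged from 877 to 1308 (median 940) in control and, on the fmn arrays other than ZT 12, from 1480 to 1765, while the fmn array of ZT 12 had 677. Its log2 difference was 0.48 (SE 0.18, adjusted p = 0.0684), which passed with the time point as a block (adjusted p = 0.0480) and without the fmn array of ZT 12 (0.66, adjusted p = 7.39e-05). The third, 1636146_at, did likewise, with 455 at ZT 12 against 1171 to 1533 on the other fmn arrays and a difference of 0.57 (SE 0.23, adjusted p = 0.0924). Its adjusted p was 0.0496 with the block, and its difference was 0.81 (adjusted p = 3.99e-05) without the fmn array of ZT 12. The log2 ratio of 1626001_at to 1637463_a_at was lower in fmn by 0.93 (SE 0.26, adjusted p = 0.0199, or 0.0915 with no filter and 0.0841 without the 3 arrays bearing other organs' markers). Which form of Nrg each probe set reads is not stated in the annotation used.

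A neuronal marker moved on the same arrays. The signal of elav, which encodes an RNA-binding protein of neurons, was 612 on the fmn array of ZT 12 and 2174 to 2335 on the other fmn arrays, against 823 to 1108 in control (log2 difference 0.91, SE 0.24, limma adjusted p = 0.0183). Of the 6 neuronal markers elav was higher in fmn, brp, a protein of the presynaptic active zone, was lower (-0.37, SE 0.12, adjusted p = 0.0458), and the other 4 were not changed. Their sum was 6586 on the fmn array of ZT 12. The part of elav or of the neuronal share in the values of Sema1a, ena, Dscam2 and Nrg was not tested.

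Alk, a receptor tyrosine kinase that responds to the ligand Jelly belly (jeb), had control signals of 1209 to 1448 (median 1312) and fmn signals of 756 to 1537 (median 866). All fmn arrays but that of ZT 12, the highest of the 14, lay under every control array. The log2 difference was -0.55 (SE 0.13, limma adjusted p = 0.00806), and it was -0.68 without the fmn array of ZT 12 (adjusted p = 4.6e-06) and -0.52 without the 3 arrays bearing other organs' markers (adjusted p = 0.0551). jeb itself had a difference of 0.11 (SE 0.11, adjusted p = 0.535).

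Hibris (hbs), an adhesion molecule of the nephrin family, ranged from 158 to 222 (median 198) in control and from 111 to 167 (median 131) in fmn. It was lower at all 7 times, with a log2 difference of -0.59 (SE 0.09, limma adjusted p = 0.000565). Ptp4E, a receptor tyrosine phosphatase, fell on 2 of its 3 tested probe sets, with log2 differences of -0.49 for 1637627_at (SE 0.09, adjusted p = 0.00192) and -0.39 for 1631741_a_at (SE 0.07, adjusted p = 0.00147). On 1631741_a_at no fmn signal (243 to 334) reached the lowest control signal (344). The third, 1627599_at, had -0.08 (SE 0.12, adjusted p = 0.682).

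trol encodes Perlecan, a matrix proteoglycan that binds secreted signals. Its brightest probe set, 1641442_a_at, had a log2 difference of 0.06 (SE 0.07, limma adjusted p = 0.585), whereas 1625116_at was lower at all 7 times, with control signals of 724 to 897 (median 795) and fmn signals of 523 to 760 (median 572). That difference was -0.46 (SE 0.08, adjusted p = 0.000893), and the ratio of the pair was lower in fmn by 0.51 (SE 0.11, adjusted p = 0.00433). On the third tested probe set, 1640223_a_at, the difference was -0.31 (SE 0.10, adjusted p = 0.0373), lower at 6 of 7 times but under the size asked of a change, and it was -0.39 without the fmn array of ZT 12 (adjusted p = 0.00114), past that size.

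dlg1 encodes the synaptic scaffold Discs large, which holds adhesion molecules and channels in place. On 1635382_at the signals ranged from 1892 to 2804 (median 2246) in control and from 1143 to 1808 (median 1446) in fmn, without overlap, a log2 difference of -0.66 (SE 0.11, limma adjusted p = 0.00103). On 1640119_a_at the difference was -0.57 (SE 0.15, adjusted p = 0.0178), and it was -0.38 without the 3 arrays bearing other organs' markers (adjusted p = 0.107) and missed the threshold in the fit over all probe sets (adjusted p = 0.0768). That probe set was lower at all 7 times, and with the time point as a block its limma adjusted p was 3.73e-05. On 1624021_a_at the difference was 0.28 (SE 0.06, adjusted p = 0.00452), higher at all 7 times but 1.21-fold. The log2 ratio of 1624021_a_at to 1635382_at was higher in fmn by 0.94 (SE 0.14, adjusted p = 0.000673), so the probe sets of dlg1 went apart within each array.

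**Figure D5:**
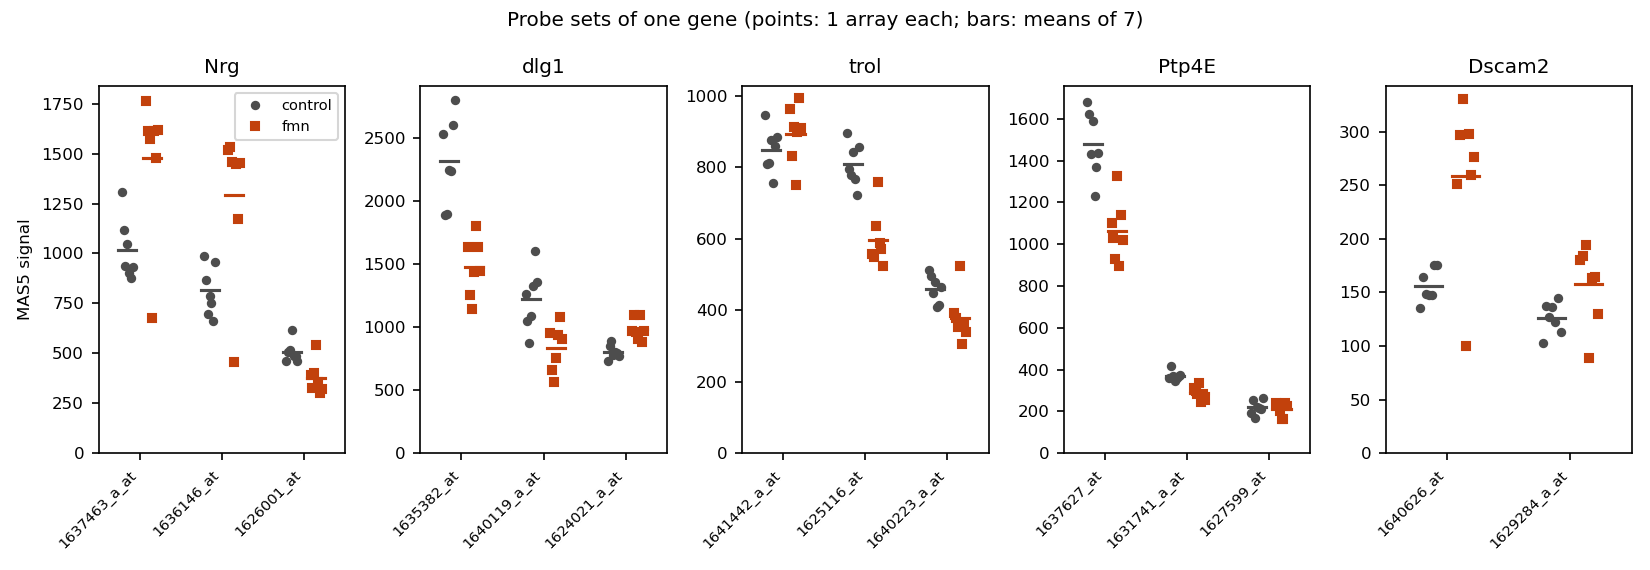
MAS5 signal (linear, from 0) of each tested probe set of Nrg, dlg1, trol, Ptp4E and Dscam2, with circles for the 7 control and squares for the 7 fmn arrays in order of zeitgeber time and bars for their means. Within Nrg and dlg1 some probe sets were higher in fmn and others lower, and the fmn array of ZT 12 is the single low square of the brighter Nrg and Dscam2 probe sets.

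In the wider list, 10 of the 81 probe sets were rhythmic over both genotypes (12.3%, against 14.4% of all tested), 2 in control (2.47% against 5.14%) and 2 in fmn (2.47% against 4.28%), so the list's shares were no higher than those of the array. Of the 10, 7 were rhythmic without the fmn array of ZT 12 and 3 without the 3 arrays bearing other organs' markers: dlp, dlg1 1640119_a_at and rst. The largest amplitudes were those of dlg1 1640119_a_at, 0.43 (SE 0.03) with a peak at ZT 19.7 (limma adjusted p = 5.14e-06), and of dlp, a glypican that binds morphogens, 0.42 (SE 0.04) with a peak at ZT 9.55 (adjusted p = 3.56e-05). These probe sets were rhythmic within each genotype as well. In control dlp rose from 669 at ZT 0 to 1189 at ZT 12, and in fmn from 805 to 1254. dlg1 1640119_a_at was lowest at ZT 8 and highest at ZT 20 in both genotypes, from 871 to 1608 in control and from 565 to 1081 in fmn. The other dlg1 probe set that was lower in fmn, 1635382_at, peaked at ZT 19.5 (amplitude 0.27, SE 0.05, adjusted p = 0.00515).

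The remaining rhythmic probe sets had amplitudes of 0.10 to 0.22, and of these and dlg1 1635382_at only rst (adjusted p = 0.0417 by limma) passed without the 3 arrays bearing other organs' markers. The Netrin NetB peaked at ZT 6.89 (adjusted p = 0.0331 by limma) and the adhesion molecule Fas1 at ZT 5.09 (adjusted p = 0.0126). The leucine-rich repeat receptor trn peaked at ZT 8.12 (adjusted p = 0.0210), the kinase Pak at ZT 8.89 (adjusted p = 0.0443), the actin nucleation factor SCAR at ZT 9.36 (adjusted p = 0.0426) and the adhesion molecule rst at ZT 9.92 (adjusted p = 0.0343). Only Ptp99A 1632003_a_at and the dlg1 probe sets among the 10 peaked in the dark, Ptp99A at ZT 23.3 (adjusted p = 0.0330).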

How the data were processed

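RNA of pooled heads from control (w1118) and fmn flies was hybridised by the authors to Affymetrix Drosophila Genome 2.0 arrays, 7 per genotype. The files hold, as deposited, 1 MAS5 intensity per probe set and array on a linear scale. The MAS5 version and its scaling target were not given in the sources used here, the later Subio normalization of the authors is not in these values, and Present calls were not used. Genes were named from the platform annotation. Of 18769 probe sets that are not controls, 13646 had 1 gene, 402 several and 4721 none, and symbols and synonyms were updated through a RefSeq table of the Release 6 assembly, in which 13634 were found.

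Signals were converted to log2 and centred on each array's 75th percentile. A probe set was dropped if 7 or more of its 14 signals were under 100. Changed means an adjusted p under 0.05 and a log2 difference of at least 0.32. Genotypes were compared with limma 3.58.1 (lmFit, eBayes) in R 4.3.3 without a block, following the study's comparison of 7 arrays with 7, and p values were adjusted by Benjamini-Hochberg over all 8641 probe sets tested. Daily rhythm was an F test of limma on the 24 h cosine and sine terms, and ratios of probe sets were tested over 560 pairs. The fits were also run on simulated data whose noise was independent between arrays. Those data held no outlying arrays and no deviations shared by time point, so that run does not cover these features.

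At every time point the control and the fmn array deviated from their genotype means in the same sense, with correlations from 0.132 (ZT 0) to 0.503 (ZT 4). Arrays were therefore treated as paired by time in an alternative fit with a block for time. Others changed the scaling, filter, pseudocount, test and the arrays used.

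The members, the wider list and the markers were chosen with earlier results of these data known. Named were all probe sets of the members, probe sets of the wider list changed or rhythmic over both genotypes (at most 8 a direction), DAT and scb, and the 3 most alike to each changed member. Some partners of the members and other tested probe sets of the genes of the wider list that changed were named besides. No sequence table was used, so no sequences are printed.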

Additional observations from a re-analysis of the deposited data

Results flagged for a closer look

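In each of 32 groups of 7 arrays (the tested probe sets of the members and the changed ones of the wider list, in each genotype), the gap of the lowest or highest array to the next was divided by the whole range on the log2 scale. In 5 groups this share was above 0.568, which chance exceeds in about 1 in 20 groups. Of these, 3 were the fmn array of ZT 12: the lowest for ena (670, share 0.729) and for Dscam2 1640626_at (100, share 0.779), and the highest for Alk (1537, share 0.730). The control array of ZT 0 was the lowest for Sema1a (179, share 0.733), and it is 1 of the 3 arrays bearing other organs' markers. The control array of ZT 20 was the lowest for hbs (158, share 0.605). The causes were not tested.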

How the results depend on the processing

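The count of changed members, 2, was the same under 18 of 19 alternatives and was 1 without the 3 arrays bearing other organs' markers, where Sema1a missed the threshold. The log2 difference of Sema1a ran from 0.42 to 0.67 over all 19, that of ena from 0.50 to 0.71 with adjusted p values up to 0.0491, and that of robo1 from 0.15 to 0.20, under the 0.32 asked in each, with adjusted p values from 0.00953 to 0.424. Of 378 alternative values for 28 single results, 360 stayed on their side of the threshold, 18 lost their call and none turned, and the causes were not tested. Leaving out each time point gave 555 to 700 changed probe sets, against 629, and centring on the array median gave 505, of which 41% were higher, against 50.9%. With the time point as a block there were 695, 625 of them shared with the 629, and the higher probe sets of the wider list went from 1 to 3 through Nrg, while no member changed its call. Settings for the wider list were chosen after seeing the data: its higher count was also 4 without the fmn array of ZT 12 and 0 without the 3 arrays, and its 10 rhythmic probe sets numbered 9 and 3 in those settings. Over all tested probe sets 388 and 258 were higher in those settings, against 320. Rhythms over both genotypes, 1245 in all, numbered 581 without the filter, 730 with centring on the median and 670 without the 3 arrays. Without ZT 24 there were 256 in control, against 444, and 219 in fmn, against 370. Ratios of probe sets that differed fell from 87 to 38 without the 3 arrays. Under the 7 alternatives for the rhythm over both genotypes 0 members were rhythmic. For control or fmn alone the members were not counted under the alternatives. The number of arrays limits the precision.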

Other observations

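Other receptors and adhesion molecules of the wider list, singled out after their values were seen, are given here by their values alone. The log2 difference was -0.05 (SE 0.06, limma adjusted p = 0.590) for Lac, 0.01 (SE 0.05, adjusted p = 0.908) for Cont and 0.09 (SE 0.13, adjusted p = 0.678) for Nrx-IV, all parts of septate junctions. Appl, the fly homologue of the amyloid precursor protein, was lower at 6 of 7 times, with control signals of 3271 to 3809 and fmn signals of 2679 to 3611 (log2 difference -0.24, SE 0.06, adjusted p = 0.0168). tutl, an immunoglobulin protein, was higher at 6 of 7 on 1637631_at (0.21, SE 0.07, adjusted p = 0.0477). Its other tested probe set, 1636076_a_at, was higher at 2 of 7 (-0.11, SE 0.11, adjusted p = 0.540). The differences of Appl and tutl were under the 0.32 asked of a change.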
